A study of Mus musculus with 6 samples.

Results

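The liver carriers and pumps that move organic anions, cations and drugs across the hepatocyte membrane are described here through 9 named genes, Slco1a1, Slco1a4, Slco1b2, Slco2b1, Slc22a7, Abcc2, Abcg2, Abcc3 and Abcc4. They were chosen by name from the 55385 genes of the count table, matched by identifier to GENCODE M21 symbols, and all 9 were among the 14454 genes with enough reads to be tested. RNA-seq was performed on livers of 3 sham-operated (Sham) and 3 vertical sleeve gastrectomy (VSG) mice, 1 animal per library. All 6 animals were wild-type C57BL/6 males on a high-fat diet (HFD), aged 6 to 8 weeks per the labels, fed HFD for 10 weeks, operated, and kept on HFD for 12 more weeks. VSG removes most of the stomach along its outer curve, whereas the sham operation leaves it in place, so the comparison shows which transporter transcripts differed between operated and sham-operated livers on the same diet. About 40 mg of whole liver was used per sample, which also holds cells other than hepatocytes, and no lean or unoperated animals were used here.

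Hepatocytes take up bile acids, hormone conjugates, bilirubin and many drugs from the blood through carriers of the Slco family (organic anion transporting polypeptides, Oatp) and the Slc22 family, which includes the organic anion and cation transporters. After conjugation, the products leave either into bile through pumps of the canalicular membrane, such as Abcc2 (Mrp2) and Abcg2 (Bcrp), or back into the blood through basolateral pumps, such as Abcc3 (Mrp3) and Abcc4 (Mrp4). The nuclear receptors CAR (Nr1i3) and PXR (Nr1i2), the oxidative stress factor NRF2 (Nfe2l2) and the sex-dependent pattern of growth hormone are known to act on several of these genes in mouse liver.

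Between 22804397 and 24191778 reads were assigned to genes in each library. Levels are given as FPKM, the reads of a gene per kilobase of its exons scaled to library size with TMM factors, which allows genes of different length to be compared. Fold changes, their standard errors (SE) and adjusted p-values come from edgeR's quasi-likelihood test with Benjamini-Hochberg adjustment over all 14454 genes, and a gene was called at an adjusted p under 0.05. The hepatocyte markers (Alb, Apoa1, Apoa2, Ttr, Serpina1c and Ahsg) were high in every library, with a summed level of 65255 to 103208 CPM (reads scaled to library size but not to length) in sham and 50973 to 77724 CPM in VSG livers, and 0 of 6 were called. Markers of other cells did move with the operation. All 6 neutrophil and precursor markers were called higher, with a summed level of 2.19 to 11.9 CPM in sham and 106 to 1455 CPM in VSG livers, and so were 3 of 6 Kupffer cell and macrophage markers (322 to 676 against 696 to 2067 CPM). In addition, 1 of 6 stellate cell markers was called lower (589 to 890 against 280 to 550 CPM in sum). The sums of the other lists were 57.7 to 254 CPM for cholangiocytes (1 of 5 tested markers higher), 252 to 314 CPM for endothelial cells, 5.21 to 11.9 CPM for lymphocytes, 133 to 284 CPM for erythroid cells (0 called in each), 3.96 to 9.27 CPM for pancreatic acinar cells (1 lower) and at most 0.114 CPM for adipocytes, with Lep at 0 throughout. Reads of mitochondrial genes made up 5.59% to 6.58% in sham and 4.14% to 5.01% in VSG livers, without overlap, and the 10 most abundant genes held 17.0% to 19.1% in sham livers, 18.1% in VSG 5 and 23.7% and 22.9% in VSG 4 and VSG 6. The part of these cells and shares in the results on transporters was not tested, and in whole liver a smaller share of hepatocytes and less RNA per hepatocyte cannot be told apart.

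Of the 9 transporters, 2 were lower after VSG and none was higher. These were the basolateral pump Abcc3, 3.12-fold lower, and the uptake carrier Slco1a4, 5.84-fold lower. Over all tested genes 14.7% were called, 6.79% higher and 7.87% lower, so 2 of 9 genes (22.2%) is no result about the group by its count alone. The log2 fold change was negative in 7 of 9 transporters, against 47.6% of all genes, and its median was -0.63 against 0.03 over all genes. The levels of the VSG livers did not overlap those of the sham livers in 5 of 9 transporters (55.6%), all of them lower after VSG, where 39.7% of all genes did not overlap in either direction and 19.8% did so with lower VSG levels. The same 5 transporters had an unadjusted p under 0.05, and the share of all genes at that level was not counted.

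**Figure D1:**
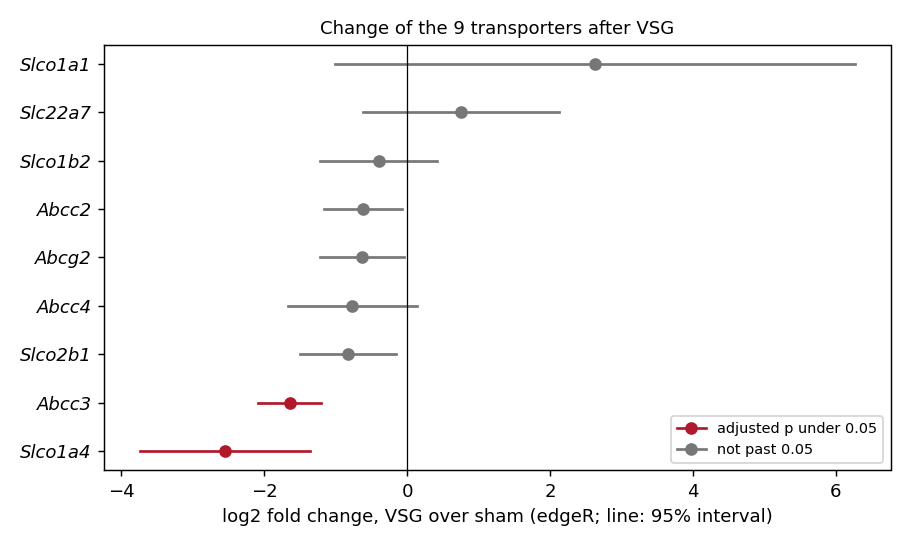
Log2 fold change of VSG over sham livers (horizontal axis) for each of the 9 transporters (vertical axis, sorted), from edgeR with 3 livers per group; points are estimates, lines are 95% intervals, and red marks an adjusted p under 0.05. The red lines of Slco1a4 (-2.54) and Abcc3 (-1.64) lie wholly below 0, and the widest line, that of Slco1a1, reaches from -1.01 to 6.26.

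Among the 5 uptake carriers, the adjacent Slco1a genes had the largest estimates of the group, of opposite sign. Only that of Slco1a4 passed the test. Slco1b2, Slco1a4 and Slco1a1 lie close together on chromosome 6 (GRCm38) at 141629518 to 141686646 (plus strand), 141805440 to 141856199 (minus strand) and 141907282 to 141946962 (minus strand). The gap is 119 kb between Slco1b2 and Slco1a4 and 51.1 kb between Slco1a4 and Slco1a1, and the 3 genes span 317 kb. Gm5724, which had 0 reads in the 6 libraries, lies in the first gap. The coding sequences of Slco1a1 and Slco1a4 were 86.7% identical over 2010 aligned bases, whereas the other pairs of the 4 Slco genes reached 60.0% to 61.9%. Only 1.64% of the 50-base words of Slco1a1 transcripts were found in other genes' transcripts, 84 of 87 of them in Slco1a4. For Slco1a4 the share was 1.61%, with 100 of 103 words in Slco1a5, which had 3 reads in all 6 libraries together.

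The 250 bases before the RefSeq transcription start of these 3 genes are printed because the genes share a stretch of chromosome 6 and had unlike values after VSG. They were taken from RefSeq on GRCm38.p6 and read 5′ to 3′ on the gene's own strand, at chr6:141946963-141947212 (minus strand) for Slco1a1, chr6:141856221-141856470 (minus strand) for Slco1a4 and chr6:141629268-141629517 (plus strand) for Slco1b2. Capitals mark matches to any of 5 short motifs searched on both strands.
Slco1a1: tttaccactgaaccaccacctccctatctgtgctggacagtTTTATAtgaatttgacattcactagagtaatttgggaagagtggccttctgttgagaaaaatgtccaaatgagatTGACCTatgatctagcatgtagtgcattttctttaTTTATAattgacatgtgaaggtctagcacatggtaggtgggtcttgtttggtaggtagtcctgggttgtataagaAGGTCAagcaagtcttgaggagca
Slco1a4: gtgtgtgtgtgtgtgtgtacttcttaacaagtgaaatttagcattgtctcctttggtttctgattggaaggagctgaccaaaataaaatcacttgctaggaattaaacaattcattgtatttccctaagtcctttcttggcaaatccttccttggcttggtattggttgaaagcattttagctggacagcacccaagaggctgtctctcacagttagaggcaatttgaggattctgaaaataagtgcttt
Slco1b2: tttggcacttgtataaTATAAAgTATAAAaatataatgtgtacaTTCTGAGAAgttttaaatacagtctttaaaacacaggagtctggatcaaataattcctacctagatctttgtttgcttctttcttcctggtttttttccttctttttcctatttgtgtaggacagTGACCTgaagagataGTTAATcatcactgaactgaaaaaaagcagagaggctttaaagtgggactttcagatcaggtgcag

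The first motif was the nuclear receptor half-site AGGTCA, found in 14.0% of 32851 RefSeq promoter windows of the same length. The second was TTCNNNGAA, an element bound by STAT5, which 7.02% of those windows held. TGACNNNGC, the core of the antioxidant response element, was found in 10.2%. An HNF1 half-site, spelled GTTAAT, was found in 6.43%. The last was the TATA box, searched as TATAAA and found in 12.4%. The Slco1a1 window held 2 nuclear receptor half-sites, with leftmost bases at -134 and -24 from the start. It also held 2 matches to TATAAA, at -209 and -99, both on the opposite strand. The Slco1b2 window held 1 nuclear receptor half-site (-81), 1 STAT5 element (-206), 1 HNF1 half-site (-66) and 2 matches to TATAAA (-234 and -227). None of the 5 motifs was found in the Slco1a4 window, which says only that these letters are not in these 250 bases. Promoter entries were found for 7 of the 9 genes. The Slco2b1 window held none of the motifs, Abcg2 held 2 nuclear receptor half-sites, and Abcc4 held 1 antioxidant response core. The antioxidant response core can overlap a nuclear receptor half-site read on the other strand, and a match is a description of letters, not a bound site.

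Slco1a4 (Oatp1a4), a carrier of organic anions and of cardiac glycosides such as digoxin, was lower after VSG. Its level was 14.1, 24.3 and 19.8 FPKM in Sham 1, Sham 2 and Sham 3 and 1.43, 5.78 and 2.74 FPKM in VSG 4, VSG 5 and VSG 6. Every VSG liver lay below every sham liver, and the highest VSG liver (VSG 5) was below the lowest sham liver (Sham 1). The mean fell from 19.4 ± 5.10 FPKM (SD, n = 3) to 3.32 ± 2.24 FPKM, with a log2 fold change of -2.54 (SE 0.501, 95% interval -3.74 to -1.35, adjusted p = 0.0243). The call was lost without Sham 2 (adjusted p = 0.0667), Sham 3 (0.0972) or VSG 6 (0.0976), while 12 alternatives gave estimates between -3.24 and -2.18, with adjusted p-values between 2.09e-06 and 0.0976.

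Slco1a1 (Oatp1a1), a carrier of bile acids and steroid conjugates that is known for a higher level in male than in female mouse liver, had the widest spread within groups, with a coefficient of variation of 152% in sham and 83.5% in VSG livers. Its level was 0.511, 10.4 and 0.432 FPKM in Sham 1 to 3 and 1.18, 37.4 and 30.7 FPKM in VSG 4 to 6. Sham 2 stood above the other sham livers and VSG 4 below the other VSG livers, so the groups overlapped. The counts behind these levels were 73, 1197 and 60 in sham and 138, 4620 and 3394 in VSG livers. This gave a log2 fold change of 2.63 (SE 1.53, 95% interval -1.01 to 6.26), with an adjusted p of 0.266. Without Sham 2 it was 5.61, with an adjusted p of 0.0873, and the 12 alternatives lay between 2.08 and 5.61, with adjusted p-values of 0.0873 to 0.474.

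The ratio of Slco1a4 to Slco1a1 within a library was added after the values were seen. It was 27.6, 2.34 and 45.8 in Sham 1 to 3 and 1.20, 0.155 and 0.0892 in VSG 4 to 6. Slco1a4 was therefore the more abundant of the pair in each sham liver and in VSG 4, and Slco1a1 in VSG 5 and VSG 6, where it was 6.47 and 11.2 times as abundant. The difference in the mean log2 ratio was -5.81, and it is given without a test because the pair was picked for its values.

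**Figure D2:**
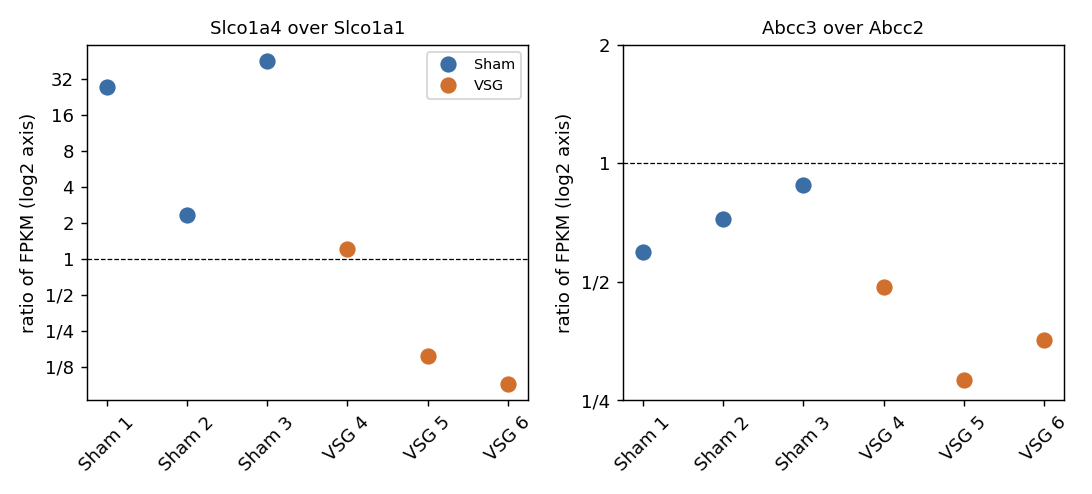
Ratio of FPKM within each liver (vertical axis, log2 scale) for Slco1a4 over Slco1a1 and for Abcc3 over Abcc2, with the 6 libraries along the horizontal axis; blue points are sham, orange points are VSG, and the dashed line marks equal levels. In both panels all 3 VSG livers lie below all 3 sham livers, with the Slco1a ratio at 2.34 to 45.8 in sham and 0.0892 to 1.20 in VSG livers.

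Slco1b2 (Oatp1b2) is the main hepatocyte carrier for bilirubin conjugates and many drugs, and it was the most abundant of the 9 transcripts in every liver. Its level was 252, 392 and 271 FPKM in Sham 1 to 3 and 131, 291 and 274 FPKM in VSG 4 to 6. Only VSG 4 lay below all sham livers, and the groups overlapped. The means were 305 ± 75.8 and 232 ± 87.8 FPKM, with a log2 fold change of -0.39 (SE 0.344, 95% interval -1.21 to 0.43, adjusted p = 0.448), which became -0.11 without VSG 4. The interval spans values on both sides of 0.

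Slco2b1 (Oatp2b1), a carrier of sulfated steroids and statins on chromosome 7 (99657804 to 99711340, minus strand), had a level of 28.6, 41.3 and 35.3 FPKM in Sham 1 to 3 and 12.1, 24.4 and 22.7 FPKM in VSG 4 to 6. The groups did not overlap, but the change did not pass the test (log2 fold change -0.83, SE 0.281, 95% interval -1.49 to -0.16, adjusted p = 0.0917). It passed with DESeq2 (adjusted p = 0.0342) and when libraries were scaled by total counts (0.0457), and over 12 alternatives the adjusted p ran from 0.0342 to 0.220. Its exons share 471 and 78 bases with the antisense genes Gm15635 and Gm34280, which had 14 and 19 reads in all libraries together.

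Slc22a7 (Oat2), an organic anion transporter on chromosome 17 (46432183 to 46438457, minus strand), was measured at 1.78, 4.0 and 3.07 FPKM in Sham 1 to 3 and 1.72, 8.83 and 4.36 FPKM in VSG 4 to 6. VSG 4 was lowest of all 6 livers and VSG 5 highest. The log2 fold change was 0.76 (SE 0.575, 95% interval -0.61 to 2.13, adjusted p = 0.383), and it came to 0.03 without VSG 5. Together with Slco1a1 it was 1 of the 2 transporters with a positive estimate, and neither passed the test.

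The summed level of the 4 Slco genes, most of it Slco1b2, was 363 ± 91.9 FPKM in sham and 279 ± 115 FPKM in VSG livers, with overlapping groups. Slco1b2 made up 84.1% ± 1.22 of that sum in sham and 84.7% ± 4.61 in VSG livers. The share of Slco1a4 was 5.34% ± 0.660 in sham and 1.14% ± 0.417 in VSG livers, and that of Slco2b1 was 9.77% ± 0.989 and 7.33% ± 0.850. The share of Slco1a1 was 0.173%, 2.22% and 0.132% in Sham 1 to 3 and 0.810%, 10.4% and 9.28% in VSG 4 to 6. These shares are of transcripts per length and not of transport activity.

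**Figure D3:**
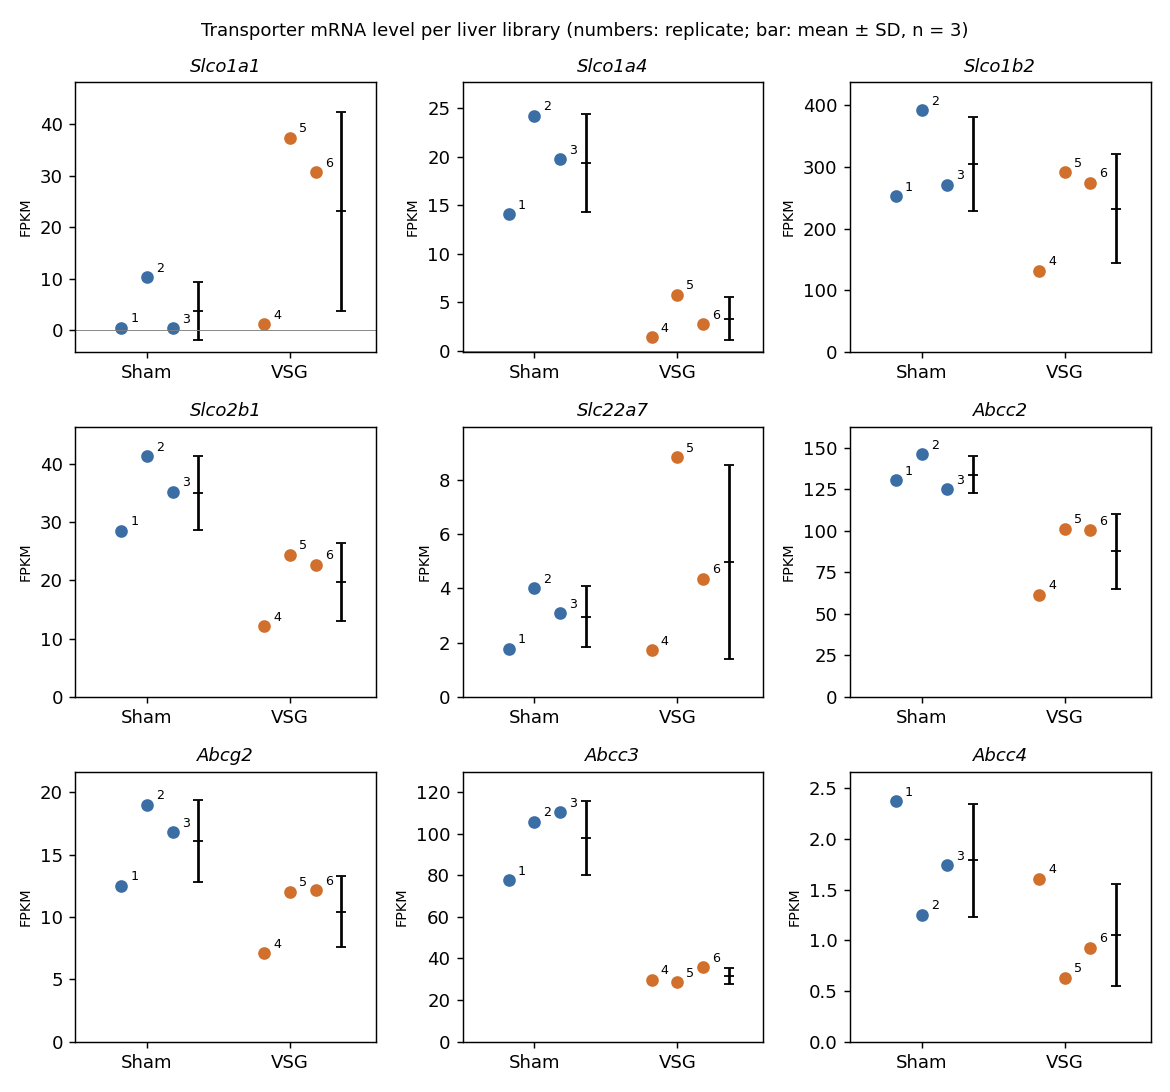
Level of each transporter in FPKM (vertical axes, linear, 1 panel per gene) in the 3 sham (blue) and 3 VSG (orange) livers, with replicate numbers beside the points and black bars for mean ± SD (n = 3). The groups are separate for Slco1a4, Slco2b1, Abcc2, Abcg2 and Abcc3, and they overlap for Slco1a1, Slco1b2, Slc22a7 and Abcc4.

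Both canalicular pumps had lower levels in every VSG liver than in any sham liver, and neither passed the main test. Abcc2 (Mrp2), which exports bilirubin glucuronides and glutathione conjugates into bile, lies on chromosome 19 (43782192 to 43840740, plus strand). Its level was 131, 146 and 125 FPKM in Sham 1 to 3 and 61.4, 101 and 100.3 FPKM in VSG 4 to 6. VSG 4 was the lowest, and the gap between groups lay between VSG 5 and Sham 3. The log2 fold change was -0.61 (SE 0.231, 95% interval -1.16 to -0.06, adjusted p = 0.116), and only DESeq2 called it (adjusted p = 0.0444, with a range of 0.0444 to 0.237 over 12 alternatives). The 250 bases before its start, shown because they hold both an antioxidant response core (at -98) and a nuclear receptor half-site (at -49), with both in capitals, are at chr19:43782058-43782307 (plus strand, GRCm38.p6, RefSeq).
Abcc2: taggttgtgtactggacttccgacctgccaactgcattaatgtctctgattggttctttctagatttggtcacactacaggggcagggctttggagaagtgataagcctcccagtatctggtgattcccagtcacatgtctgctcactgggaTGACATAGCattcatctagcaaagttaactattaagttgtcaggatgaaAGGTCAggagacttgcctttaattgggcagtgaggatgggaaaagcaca

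Abcg2 (Bcrp), a pump for sulfate conjugates and urate on chromosome 6 (58584523 to 58695676, plus strand), was measured at 12.5, 19.0 and 16.8 FPKM in Sham 1 to 3 and 7.12, 12.0 and 12.2 FPKM in VSG 4 to 6. The highest VSG liver lay just below the lowest sham liver. The log2 fold change of -0.63 (SE 0.248, 95% interval -1.22 to -0.04) had an adjusted p of 0.129 and was called under none of the 12 alternatives. The summed level of both pumps was 150.1 ± 13.1 FPKM in sham and 98.1 ± 25.6 FPKM in VSG livers.

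Of the 2 basolateral pumps, Abcc3 was lower after VSG and Abcc4 did not pass the test. Abcc3 (Mrp3), which returns glucuronides to the blood, lies on chromosome 11 (94343295 to 94392997, minus strand) and had the smallest adjusted p of the group. Its level was 77.6, 105.7 and 110.2 FPKM in Sham 1 to 3 and 29.8, 28.6 and 35.8 FPKM in VSG 4 to 6. The VSG livers lay close together and far below the lowest sham liver. The mean fell from 97.8 ± 17.7 to 31.4 ± 3.84 FPKM (n = 3), with a log2 fold change of -1.64 (SE 0.185, 95% interval -2.08 to -1.20, adjusted p = 0.00725). It was called under 12 of 12 alternatives, with log2 fold changes of -1.79 to -1.55 and adjusted p-values of up to 0.0469.

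Abcc4 (Mrp4), a pump for cyclic nucleotides, bile acids and other anions on chromosome 14 (118482692 to 118706219, minus strand), had the lowest mean of the 9 transcripts in both groups, although it was not the lowest of them in Sham 1, Sham 3 and VSG 4. Its level was 2.37, 1.25 and 1.74 FPKM in Sham 1 to 3 and 1.61, 0.629 and 0.926 FPKM in VSG 4 to 6. VSG 4 was above Sham 2, so the groups overlapped, and the change did not pass the test (log2 fold change -0.76, SE 0.379, 95% interval -1.67 to 0.14, adjusted p = 0.204). Abcc3 made up nearly all of the basolateral sum, which was 99.6 ± 17.2 FPKM in sham and 32.4 ± 3.84 FPKM in VSG livers.

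The ratio of Abcc3 to Abcc2, also added after the values were seen, sets the transcript of a basolateral pump against that of a canalicular pump. This ratio is of transcripts per length and not of transport activity. It was 0.594, 0.723 and 0.881 in Sham 1 to 3 and 0.486, 0.282 and 0.357 in VSG 4 to 6. Abcc2 was the more abundant transcript in every liver, and the ratio was lower in each VSG liver than in any sham liver. The mean log2 ratio differed by -0.98, again given without a test.

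By group means, the sham levels ran from Slco1b2 over Abcc2, Abcc3, Slco2b1, Slco1a4, Abcg2, Slco1a1 and Slc22a7 down to Abcc4. Neighbours in that order overlapped between Slco1a4 and Abcg2, between Slco1a1 and Slc22a7, and between Slc22a7 and Abcc4. The place of Slco1a1 rested on Sham 2, since its sham median (0.511 FPKM) was below that of Abcc4 (1.74 FPKM). In VSG livers Slco1b2, Abcc2 and Abcc3 again came first, Slco1a1 moved to the fourth place and Slco1a4 to the eighth. Only the steps from Slco1b2 to Abcc2 and from Abcc2 to Abcc3 were free of overlap there.

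Single livers stood apart in a way that many of the transporters shared. Sham 2 was the highest sham liver in 7 of 9 transporters, with Abcc3 highest in Sham 3 and Abcc4 in Sham 1. VSG 4 was the lowest VSG liver in 7 of 9, again except Abcc3 and Abcc4. The summed hepatocyte markers were also highest in Sham 2 (103208 CPM) and lowest in VSG 4 (50973 CPM), and the summed neutrophil markers were highest in VSG 4 (1455 CPM) and lowest in Sham 2 (2.19 CPM). Abcc4 went the other way, lowest of the sham livers in Sham 2 and highest of the VSG livers in VSG 4. The part of these markers in the transporter levels was not tested.

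**Figure D4:**
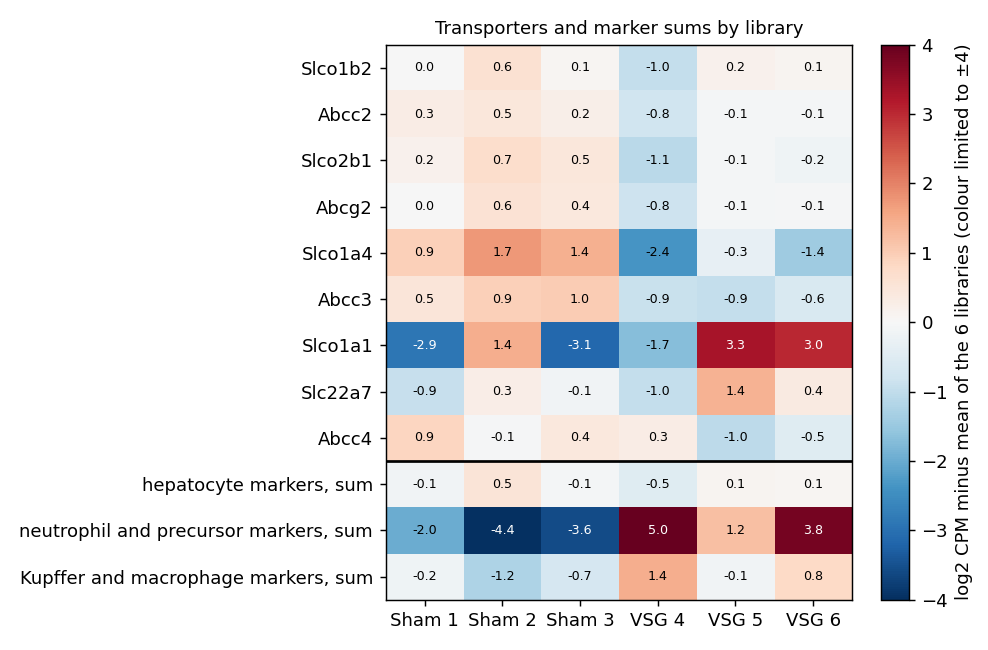
Log2 CPM minus the mean of the 6 libraries (colour and printed value) for the 9 transporters (upper rows) and for the summed markers of hepatocytes, neutrophils with their precursors, and Kupffer cells with macrophages (lower rows); columns are the 6 livers. VSG 4 was the lowest VSG liver for 7 of 9 transporters and also held the lowest hepatocyte sum and the highest neutrophil sum.

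The genes whose profile over the 6 livers was most like that of Slco1a1, by Pearson correlation of log2 CPM, were Ergic2 (r = 0.995), Epb41l4b (0.993) and Mup12 (0.992), and 69 genes exceeded 0.95. For Slco1a4 they were Gm15411, Pcsk6 and Pdhb (each r = 0.998), and 691 genes exceeded 0.95. These r values are descriptions over 6 libraries that share the split into 2 groups. Mup12, a major urinary protein gene, was at 0.239, 2.57 and 0.287 FPKM in Sham 1 to 3 and 0.440, 11.4 and 7.26 FPKM in VSG 4 to 6, with Sham 2 and VSG 4 again apart from their groups (log2 fold change 2.67, adjusted p = 0.179).

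Other carriers and pumps, some of the same families and some of other families, were read beside the 9 genes. Of 22 further uptake carriers, 16 were tested, 4 were lower and 1 was higher after VSG, and 11 did not pass (31.2% of those tested called, against 14.7% of all genes). Without Sham 3 or without VSG 6 the calls numbered 2, and without Sham 2 there were 3. Slc22a27 and Slc22a29, organic anion transporter genes of the Slc22 family, fell from 7.01 ± 2.08 to 0.656 ± 0.265 FPKM (log2 fold change -3.42, adjusted p = 0.00645) and from 2.50 ± 0.897 to 0.207 ± 0.0489 FPKM (-3.59, 0.00553). They share 29.9% and 28.7% of their 50-base words with other genes' transcripts, mostly with each other, so the split of reads between them is uncertain. Slc22a18 (log2 fold change -0.79, adjusted p = 0.0101) and the carnitine carrier Slc22a5 (-0.98, 0.0354, with 26.3% of words shared, mostly with Slc22a21) were lower, and the prostaglandin carrier Slco2a1 was higher (0.68, 0.0446). The Slc22a18 call was lost without Sham 3 or VSG 6 (adjusted p up to 0.0582), and that of Slc22a5 without Sham 2, Sham 3, VSG 4 or VSG 6 (up to 0.124). The Slco2a1 call was lost under 6 of 12 alternatives, with total counts (adjusted p = 0.0913) and without Sham 1, Sham 2, Sham 3, VSG 5 or VSG 6 (adjusted p up to 0.137). Slc10a1 (Ntcp), the main bile acid uptake carrier and the most abundant of this list, did not pass (-0.29, 0.710), and its estimate was above 0 without Sham 2 or without VSG 4.

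Of 16 further genes listed as export pumps or their partners, 15 were tested, 1 was lower and 1 was higher. The called share of 13.3% is near the 14.7% of all genes, so the count is no result about this list. The 2 calls became 5 with DESeq2 or without VSG 5, 4 with total counts, and 1 without Sham 3 or VSG 6. Abcb1a, one of the genes for the drug pump P-glycoprotein, fell from 4.01 ± 0.449 to 0.560 ± 0.174 FPKM (log2 fold change -2.84, adjusted p = 0.00273), with 17.6% of its words shared, mostly with Abcb1b. Atp8b1, a flippase of the canalicular membrane, rose from 6.47 ± 1.26 to 14.5 ± 0.656 FPKM (1.17, 0.00934), a call lost without Sham 3 or VSG 6 (adjusted p up to 0.0568). The bile salt pump Abcb11 did not pass (0.22, 0.491). Slc47a1, a proton-coupled exporter of organic cations named after its values were seen, had an adjusted p of 0.0503 with a log2 fold change of -1.42. It was called under 5 of 12 alternatives, with adjusted p-values of 0.0023 to 0.145. None of 6 scaffold proteins that anchor transporters at the membrane was called by edgeR with all 6 libraries, although 2 had an unadjusted p under 0.05, and 1 was called by DESeq2 and by edgeR without VSG 5. Among these, Pdzk1, which binds Slco1a1, had a log2 fold change of -0.27 (adjusted p = 0.414).

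The regulators named above and the genes they are known to act on were taken from lists. Of 22 transcription regulators, 1 was lower and 1 was higher (9.09% called, below the 14.7% of all genes), and neither was called without Sham 3, VSG 4 or VSG 6. Only 1 of them was called without Sham 1 or without Sham 2. PXR itself (Nr1i2) fell from 38.4 ± 8.82 to 20.9 ± 2.89 FPKM (log2 fold change -0.88, adjusted p = 0.0322, a call lost without Sham 2, Sham 3, VSG 4 or VSG 6, where the adjusted p reached 0.125), and Nr5a2 was higher (0.69, 0.0332, lost without Sham 1, Sham 3, VSG 4 or VSG 6 with values up to 0.139). CAR (Nr1i3) was at 94.8 ± 57.4 FPKM in sham and 40.7 ± 26.6 FPKM in VSG livers and did not pass (-1.22, 0.265). The estimates were -0.46 for the bile acid receptor Nr1h4 (adjusted p = 0.238), -0.42 for Nfe2l2 (0.139), -0.76 for Ppara (0.217) and 0.37 for Hnf4a (0.194), and none of these passed.

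Targets of CAR and PXR had negative estimates in 13 of 13 genes with a median log2 fold change of -1.12, and 3 passed the test, all lower (23.1% called, against 14.7% of all genes, of which 47.6% had negative estimates). Without Sham 3 or without VSG 6 none was called (edgeR), whereas 6 were called with DESeq2 or with a minimum of only 1 count and 5 with total counts. The 3 genes were Cyp3a11, a drug-oxidising cytochrome (-2.77, adjusted p = 0.0216), Cyp2c55 (-3.29, 0.0142) and the sulfate donor synthase Papss2 (-0.92, 0.0331). Cyp3a11 also lost its call without Sham 2, and Papss2 without Sham 1, Sham 2 or VSG 4, with adjusted p-values over the alternatives of at most 0.0911 and 0.112. Of 12 NRF2 targets, 8 were lower and 1 was higher (75.0% called, against 14.7% of all genes), with a median of -1.27. One of the lower genes, Gsta1, had 0 reads in each VSG liver. With at least 10 reads in every library it was not tested, and 7 of 11 were lower. Without Sham 3 or without VSG 6, 4 were lower (Gsta4, Gstm1, Nqo1 and Ugdh) and none was higher. The lower genes included the glutathione transferases Gsta4 (-2.63, adjusted p = 0.00177) and Gstm1 (-2.36, 0.00413), Nqo1 (-1.42, 0.00429), Ugdh (-1.73, 0.00732), Ephx1 (-1.32, 0.00809) and Srxn1 (-1.21, 0.0133). The gene that was higher, named after its values were seen, was the heme-degrading enzyme Hmox1 (2.11, 0.0163), which macrophages also express. Of 11 PPARA targets, 2 were lower, Pdk4 (-2.28, 0.0142) and Cpt1a (-0.93, 0.0356), with a median of -0.78. All 11 had negative estimates, against 47.6% of all genes. The called share (18.2%) is near that of all genes, and the count was 0 without Sham 3 or VSG 6, 1 without Sham 2 or VSG 4 (Cpt1a lost), 4 without VSG 5, 5 with total counts and 6 with DESeq2. The Cpt1a call was also lost without Sham 1. Over the alternatives the adjusted p reached 0.136 for Cpt1a and 0.0695 for Pdk4.

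**Figure D5:**
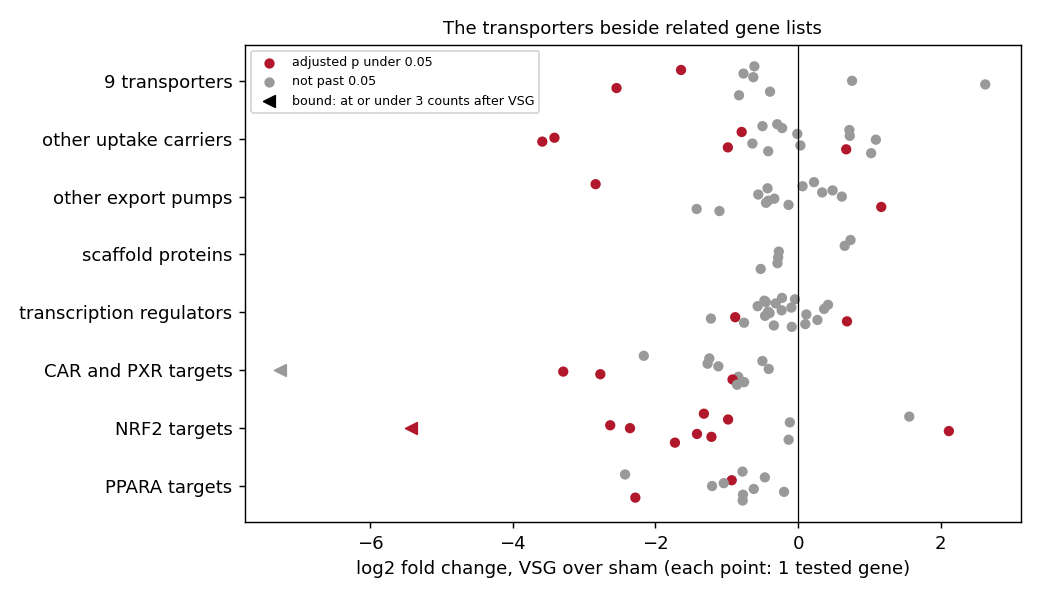
Log2 fold change of VSG over sham livers (horizontal axis) for each tested gene of the 9 transporters and related lists (vertical axis); red points passed an adjusted p of 0.05, and triangles mark bounds for genes with at most 3 reads in every VSG liver. The CAR and PXR targets lie to the left of 0 in 13 of 13 genes, the PPARA targets in 11 of 11, and the 9 transporters in 7 of 9.

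Because Slco1a1 and Slco1a4 are known for sex-dependent levels in mouse liver, lists of sex-biased liver genes were counted in these male mice. Of 12 male-biased genes, 1 was called higher, the complement gene C6 (log2 fold change 1.93, adjusted p = 0.0134), and the median was 0.62. This is 8.33% of the list, near the 6.79% of all genes that were called higher. The count was 0 without Sham 3 or VSG 6 and reached 3 without VSG 4 or with a minimum of only 1 count. Without VSG 5, 1 gene was higher and 1 was lower. Of 13 female-biased genes, 7 were tested and 5 were called lower, and the median was -6.44, or -5.13 with 3 genes at or under the floor of 3 reads per library set to their bound. The share called was 71.4% of the 7 tested, against 7.87% of all genes called lower. The count was 2 with limma-voom or without Sham 3, 3 without Sham 2, 1 without VSG 6, 6 without Sham 1, and 7 of 12 then tested with DESeq2 or with a minimum of only 1 count. Only 2 genes of the list had at least 10 reads in every library, and both were called under that filter. Cyp2b9 had the value -6.44 (0.00656), Fmo2 was at -1.79 (0.0427, lost under 6 of 12 alternatives with values up to 0.143), and Cyp2b13 had 69, 468 and 511 reads in Sham 1 to 3 and 0 in each VSG liver, at least 106-fold lower (0.0265, lost with limma-voom and without Sham 2, Sham 3 or VSG 6, up to 0.102). Cyp2a4 had 1720, 266 and 432 reads in sham and 3, 3 and 0 in VSG livers (0.00939, lost with limma-voom and without VSG 6), and Hao2 had 34, 204 and 96 against 1, 1 and 0 (0.0155, lost without Sham 3 or VSG 6).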

How the data were processed

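RNA-seq libraries were poly(A)-selected and strand-specific and were sequenced on an Illumina instrument. Per the labels, the authors used FastQC 0.10.1, STAR 2.6.0 (mm10) and featureCounts 2.0.3, and they deposited raw read counts per gene with each gene's exon length. The study's methods give another featureCounts release and name DESeq2 for testing. Which annotation and strand setting were used, and how reads with several hits were handled, is not given in the sources used here, so near-identical, overlapping and antisense genes are uncertain. Identifiers were matched to GENCODE M21 symbols for 55144 of 55385 genes (54487 with the same version).

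After filterByExpr (minimum count 10, minimum total 15), genes were tested with edgeR 4.0.16 (TMM, quasi-likelihood, group as the only term) in R 4.3.3. SE is the log2 fold change divided by the square root of F. FPKM used TMM-scaled totals and the deposited lengths. A count of 3 was taken as the floor, 0.111 to 0.143 CPM per library, covering counting error only. Replicates differed by far more than counting noise (chi-square per degree of freedom 27.5 to 212). The script was tested on simulated data. Alternatives were DESeq2 1.42.0, limma-voom (limma 3.58.1), other scalings, other filters and each library left out. Named were all 9 transporters, in each other list the called genes up to the 6 with the smallest p, the most abundant other uptake carrier and export pump, 7 preset regulators and scaffolds, and the 3 genes most like Slco1a1 and Slco1a4. Transporters and lists were chosen with earlier results of these data known, so counts over them are descriptions.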

Additional observations from a re-analysis of the deposited data

How the results depend on the processing

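No paired analysis was possible because the replicate numbers of the sham (1 to 3) and VSG (4 to 6) livers are not shared. Called genes numbered 2118 of all tested, 2 of the transporters, 7 of the other transporters and scaffolds and 22 of the regulators and target lists. With DESeq2, run on all genes with at least 1 count, they were 3270, 4, 13 and 33. Leaving out 1 library gave 159 to 2732 (159 without Sham 3, 210 without VSG 6), 1 to 2, 3 to 11 and 5 to 26. The 4 transporters called by DESeq2 were Abcc3, Slco1a4, Slco2b1 and Abcc2. Of the transporters, Abcc3 alone was called under every alternative. None of the 9 changed direction. Slc10a1 did, at 0.21 without Sham 2 and 0.04 without VSG 4, within a range of -0.64 to 0.21 over the libraries left out. The cause was not tested. Of the 31 named genes called, 9 stayed called under every alternative that tested them (Abcb1a, Abcc3, Cyp2b9, Gsta4, Gstm1, Nqo1, Slc22a27, Slc22a29 and Ugdh). The other calls were lost mainly without VSG 6 (22 genes), Sham 3 (21) or Sham 2 (12), and none of the 31 reversed. Scaling by total counts moved the median log2 fold change of all genes to -0.11 and that of the transporters to -0.75, and of its 1998 calls 24.3% were higher, against 46.3% with TMM. With 3 livers per group, the interval of Slco1a1 spans both signs.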
